A study of Mus musculus with 8 samples.

Results

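The acetylated regions around 5 receptor tyrosine kinase genes, Egfr, Erbb2, Erbb3, Met and Fgfr2, were examined in mouse colon cancer organoids with and without Gata6. H3K27ac, a histone acetylation of active promoters and enhancers, was profiled by CUT&RUN, in which an antibody-tethered nuclease releases the DNA that carries the mark. A peak was counted as a member when it overlapped a fixed mm9 window around a gene, and 34 of the 22731 peaks in the table did so. The windows were chr11:16.60-16.87 Mb for Egfr, chr11:98.24-98.32 Mb for Erbb2, chr10:127.97-128.05 Mb for Erbb3, chr6:17.35-17.56 Mb for Met and chr7:136.75-137.50 Mb for Fgfr2 with its downstream flank. They held 2, 9, 2, 1 and 20 peaks in that order.

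The libraries came from Gata6 knockout AKP organoids (3) and from control AKP organoids (3), whose labels differ only in Gata6. Both groups carry the AKP genotype, whose alleles the labels do not spell out. For both, the labels name C57Bl6 recipient mice and organoids broken up into single-cell suspension before the assay. How Gata6 was removed, and whether the libraries of a group came from separate cultures, clones or animals, is not given in the sources used here, so the spread between libraries may be technical. Reads in peaks numbered 5495414 to 6196455 in knockout and 5141856 to 7026388 in control libraries. The table does not pair peaks with genes, so neither Gata6 itself nor markers of colon epithelium or other cell types checked the labels, and genes are named here by the windows alone. In bulk material, fewer cells with an acetylated region and less acetylation per cell cannot be told apart.

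Receptor tyrosine kinases span the cell membrane, bind a growth factor outside and phosphorylate tyrosines inside, which recruits adaptors and starts the MAP kinase and PI3-kinase cascades. EGFR, the receptor of EGF-like ligands, pairs with its relatives ERBB2, which has no known ligand of its own, and ERBB3, a neuregulin receptor with weak kinase activity. MET is the receptor of hepatocyte growth factor, and FGFR2 is a fibroblast growth factor receptor whose epithelial splice form answers factors made by the mesenchyme. In the gut epithelium these receptors convey signals for growth and repair, and GATA6 is a zinc finger transcription factor of endodermal tissues that binds the letters GATA.

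RefSeq promoter sequences, 250 bases before to 50 after the start on GRCm38.p6, were at hand for 4 of the 5 genes, Erbb3 being the one without. The sequences at Fgfr2 and Erbb2 are shown because these are the genes whose windows held called peaks. Capitals mark GATAA, the GATA core with 1 more base, which was searched on both strands and would read TTATC if it lay on the other one. Letters run 5′ to 3′ on the gene's strand. The Fgfr2 promoter lies on the minus strand at chr7:130266759-130267058 and the Erbb2 promoter on the plus strand at chr11:98412234-98412533, both in GRCm38.p6 and not in the build of the peaks.
Fgfr2 promoter: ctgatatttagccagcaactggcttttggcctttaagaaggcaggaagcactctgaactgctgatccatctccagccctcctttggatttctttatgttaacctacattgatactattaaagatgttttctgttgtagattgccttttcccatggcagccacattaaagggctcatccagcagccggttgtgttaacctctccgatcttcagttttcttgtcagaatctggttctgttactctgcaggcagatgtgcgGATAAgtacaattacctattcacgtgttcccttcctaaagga
Erbb2 promoter: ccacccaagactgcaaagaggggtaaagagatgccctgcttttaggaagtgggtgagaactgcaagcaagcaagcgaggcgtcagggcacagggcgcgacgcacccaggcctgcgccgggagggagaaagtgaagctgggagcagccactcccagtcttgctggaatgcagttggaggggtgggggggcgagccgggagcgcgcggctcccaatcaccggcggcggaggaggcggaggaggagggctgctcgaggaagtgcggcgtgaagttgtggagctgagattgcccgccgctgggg
The Fgfr2 sequence held 1 GATAA, starting at base 259, and was 43.7% G or C with 4 CG dinucleotides. The Erbb2 sequence held none and was 66.0% G or C with 21 CG dinucleotides. The Egfr and Met promoters held no GATAA either, and had 15 and 34 CG dinucleotides. GATAA occurred in 25.4% of all 32851 RefSeq promoters of this length, whose median was 7 CG dinucleotides. The shorter core GATA, counted on both strands, occurred 3 times at Fgfr2 and 0 times at Erbb2, Egfr and Met. It was present in 57.9% of all promoters. These matches describe letters only, and whether a peak covered any of these promoters was not analysed here because the peaks are on mm9.

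Levels are CPM, the reads in a peak scaled to the same total of reads in peaks for every library and corrected by TMM factors. A peak was called when edgeR's quasi-likelihood test over all 22731 peaks gave a Benjamini-Hochberg adjusted p under 0.05. The windows were chosen by gene position with the knockout over control fold changes of these peaks already in view, so calls and fold changes are given here as a description and carry no test of their own. Higher acetylation in the knockout was called at 18 of the 34 peaks and lower acetylation at 1, where 11.6% of all peaks were called higher and 10.2% lower. The Fgfr2 window held 17 of the 18 higher calls, and the Erbb2 window held the other higher call and the lower call. No peak at Egfr, Erbb3 or Met was called. The median log2 fold change was 0.48 over the 34 members and 0.01 over the 14 outside the Fgfr2 window, against -0.01 over all peaks.

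The acetylation summed over each window differed most at Fgfr2. Its 20 peaks summed to 1068, 1081 and 1103 CPM in knockout libraries 1 to 3, against 622, 647 and 647 CPM in control libraries 1 to 3. The knockout libraries all lay far above the control libraries, with means of 1084 ± 18.0 and 638 ± 14.3 CPM (SD, n = 3 each), a 1.70-fold ratio. Of 2164 windows of 750 kb laid end to end along the genome that held a peak, 26.2% had all knockout sums above all control sums, and the middle 90% of their log2 ratios ran between -0.35 and 0.55, while the Fgfr2 window's log2 ratio was 0.76.

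Sums over the ERBB family windows overlapped between the groups. The 2 Egfr peaks summed to 80.4, 68.6 and 61.9 CPM in knockout and to 77.9, 72.1 and 67.9 CPM in control libraries, a log2 ratio of -0.05. The 9 Erbb2 peaks summed to 616, 639 and 658 CPM in knockout and to 587, 607 and 617 CPM in control libraries, a log2 ratio of 0.08. The 2 Erbb3 peaks summed to 104, 106 and 128 CPM in knockout and to 106, 114 and 117 CPM in control libraries, a log2 ratio of 0.01. These 3 ratios lay inside the middle 50% of the windows of like length, which ran between -0.17 and 0.18 for 80 kb and between -0.15 and 0.15 for 270 kb. The only Met peak had 11.5, 10.5 and 14.1 CPM in knockout and 14.6, 17.9 and 20.6 CPM in control libraries. Every knockout value at Met lay below every control value, as at 16.2% of all 22731 single peaks. The same held for 22.8% of sums over 210-kb windows. Those windows held a median of 3 peaks and are not like a lone narrow peak. The Met peak's log2 fold change of -0.56 lay just below the middle 90% of single peaks, which ran between -0.51 and 0.73.

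**Figure D1:**
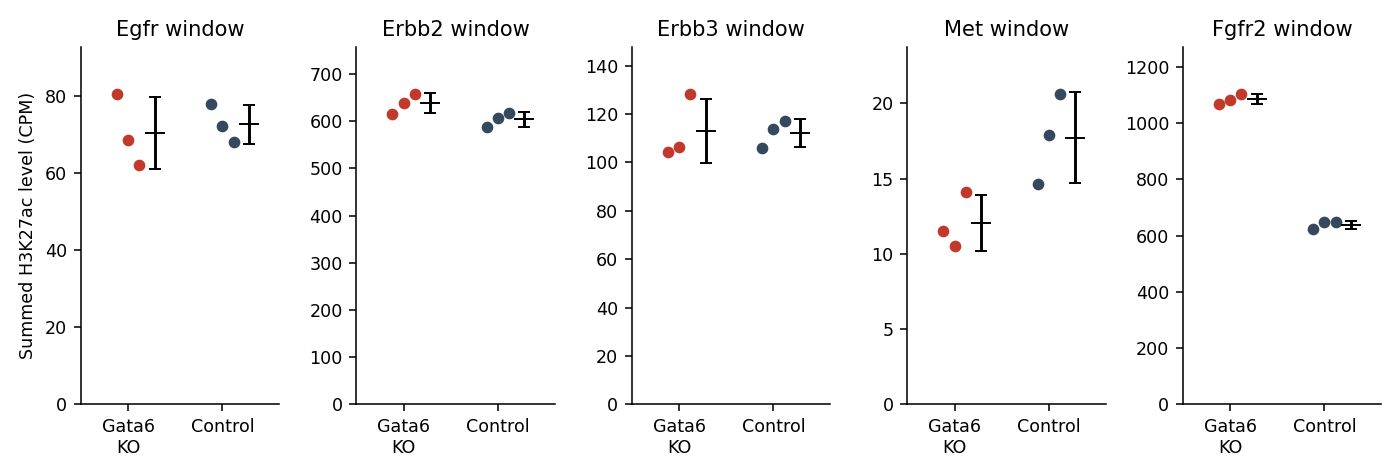
Summed H3K27ac level (CPM, y axis from 0, a scale of its own in each panel) in the 5 windows, with 1 point per library, Gata6 knockout left and control right, and a black bar for the mean ± SD of 3 libraries. At Fgfr2 the knockout points sit at 1068 to 1103 CPM and the control points at 622 to 647 CPM, at Met the knockout points lie below the control points, and in the other 3 windows the groups overlap.

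**Figure D2:**
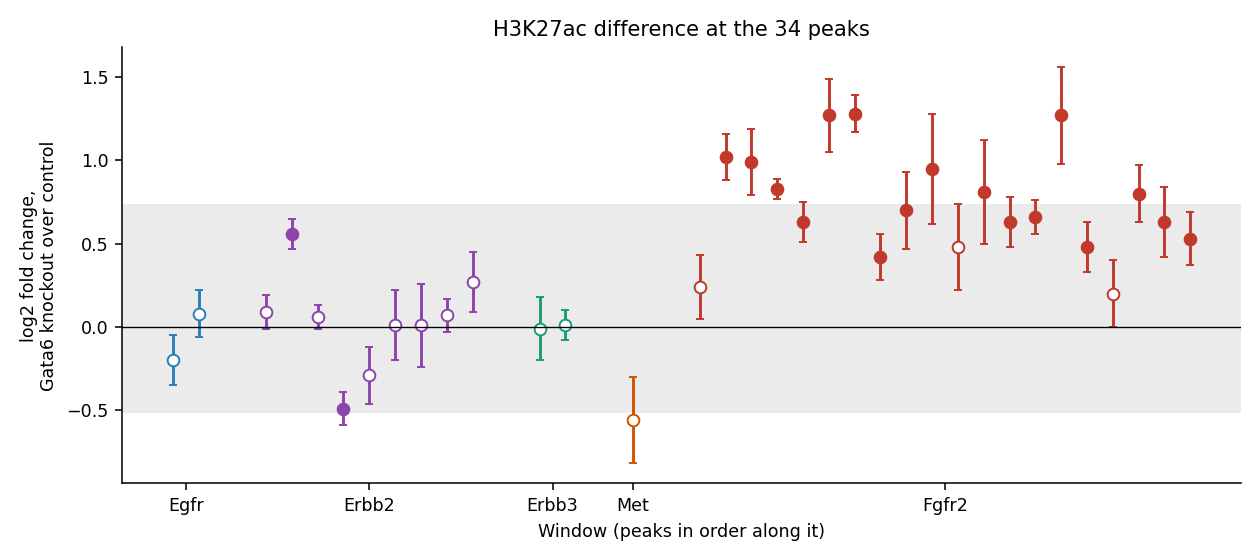
Log2 fold change of H3K27ac, Gata6 knockout over control, with its standard error, at the 34 peaks in order along each window. Filled points were called at an adjusted p under 0.05 and open points were not, and the grey band holds the middle 90% of all 22731 peaks (-0.51 to 0.73). All 20 Fgfr2 points lie above 0, and the Erbb2 points lie on both sides of it.

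The Egfr window was thinly acetylated along its length: its 2 peaks covered 4.75 kb, or 1.76% of 270 kb. Per kb of peak they were well covered, at 12.5 and 17.3 CPM per kb in knockout and 14.4 and 16.3 CPM per kb in control libraries, where the median of all peaks was 10.7 CPM per kb in both groups. Egfr peak 1, at chr11:16689536-16692014, had 39.7, 29.4 and 24.1 CPM in knockout and 39.3, 36.2 and 31.2 CPM in control libraries, a log2 fold change of -0.20 ± 0.15 (SE). Egfr peak 2, at chr11:16708945-16711213, had 40.7, 39.2 and 37.8 CPM in knockout and 38.6, 35.8 and 36.7 CPM in control libraries, a log2 fold change of 0.08 ± 0.14. In both peaks the groups overlapped, and knockout library 1 was the highest of its group. The nearest peaks outside the window lay 191 kb below and 189 kb above it, with log2 fold changes of 0.10 and -0.04, and neither was called.

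The Erbb2 window was the most densely acetylated of the 5 for its length, with peaks over 43.6 of its 80 kb. It held 1 higher and 1 lower call among 9 peaks, shares near the 11.6% and 10.2% of all peaks called. Erbb2 peak 2, at chr11:98251007-98257837, had 132, 132 and 139 CPM in knockout and 93.9, 85.7 and 92.2 CPM in control libraries. It was called higher, 1.48-fold, with a log2 fold change of 0.56 ± 0.09, and the libraries of the groups lay apart. Erbb2 peak 4, at chr11:98286225-98291439, had 56.8, 65.7 and 72.3 CPM in knockout and 88.9, 88.4 and 95.4 CPM in control libraries. It was called lower, to 0.714 times the control level, with a log2 fold change of -0.49 ± 0.10, and its groups also lay apart.

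Between these peaks lay Erbb2 peak 3, the widest of the window at 11605 bp, at chr11:98273093-98284697. It had 190.1, 188 and 194 CPM in knockout and 181, 188 and 179 CPM in control libraries, and its log2 fold change of 0.06 ± 0.07 was not called. It held 29.9% of the window's summed level in knockout and 30.3% in control libraries. Peak 2 held 21.0% in knockout and 15.0% in control libraries, while peak 4 held 10.2% in knockout and 15.1% in control libraries. The remaining 6 peaks had log2 fold changes between -0.29 at peak 5 and 0.27 at peak 9, and none was called. At peak 5, which directly follows peak 4, the 3 knockout levels of 27.9, 23.9 and 22.3 CPM all lay below the control levels of 28.2, 30.4 and 32.1 CPM. The groups lay apart in this direction at 16.2% of all peaks.

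**Figure D3:**
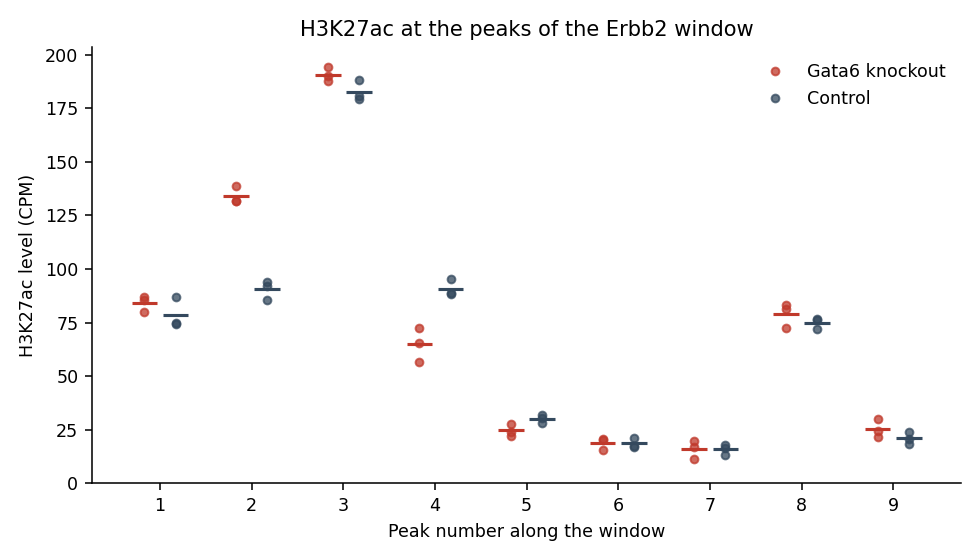
H3K27ac level (CPM, y axis from 0) at the 9 peaks of the Erbb2 window in order, with 1 point per library, Gata6 knockout left of control in each slot, and bars for the group means. Peak 2 is higher in knockout (means 134 and 90.6 CPM), peak 4 is lower in knockout (means 64.9 and 90.9 CPM), and peak 3 has overlapping groups.

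The coding genes next to Erbb2 in the RefSeq gene order are Pgap3 and Mien1, followed by Grb7, which encodes an adaptor that binds ERBB2. The peaks of this window may therefore belong to more than 1 gene, and were assigned to none. The next peak below the window, 5.30 kb away at chr11:98229697-98234699, had 36.2 ± 5.85 CPM in knockout and 27.5 ± 1.75 CPM in control libraries (SD, n = 3 each) and was called higher with a log2 fold change of 0.40. The next peak above, 233 kb away, was not called (-0.14). Among the 83 other peaks within 2 Mb the median was 0.09.

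The Erbb3 window showed the smallest differences. Erbb3 peak 2, at chr10:128021602-128028033, had 86.0, 88.5 and 102 CPM in knockout and 88.0, 93.1 and 92.8 CPM in control libraries, a log2 fold change of 0.01 ± 0.09. Erbb3 peak 1, at chr10:128001910-128003897, had 18.5, 17.8 and 26.3 CPM in knockout and 17.7, 20.6 and 24.3 CPM in control libraries, a log2 fold change of -0.01 ± 0.19. The groups overlapped in both, and peak 2 held 81.6% of the summed level in knockout and 81.4% in control libraries. The peaks next to the window, 27.3 kb below and 134 kb above, had log2 fold changes of 0.34 and 0.33 and were not called.

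Met peak 1, at chr6:17413383-17414707, was 1325 bp wide and narrower than most, since 5.16% of all peaks were narrower still. Its density was 9.09 CPM per kb in knockout and 13.4 CPM per kb in control libraries. The log2 fold change was -0.56 ± 0.26 and missed the threshold, on only 58 to 144 reads per library. It was called when the scaling followed the mean count, with a log2 fold change of -0.76. The next peak below the window, 44.7 kb away at chr6:17303547-17305258, had 21.2, 19.6 and 14.8 CPM in knockout and 29.6, 32.3 and 18.9 CPM in control libraries, and was called lower (-0.53 ± 0.18) although the groups overlapped. The next peak above, 26.7 kb away, was not called (-0.20 ± 0.27). The coding genes next to Met in the RefSeq order are Cav1 and Capza2.

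The Fgfr2 window held 20 peaks over 76.6 kb, or 10.2% of 750 kb. In the RefSeq order Fgfr2 lies on the minus strand between Wdr11 and Ate1, which are the nearest coding genes on either side, so the downstream flank is the lower end of the window, towards Wdr11. Where the gene ends within the window was not laid over the peaks, so the peaks of this window were assigned to no gene. All 20 log2 fold changes were above 0, from 0.20 to 1.28 with a median of 0.68, and 17 peaks were called higher, 14 of them by 1.5-fold or more, against 6.88% of all peaks called higher by 1.5-fold. At 16 peaks all knockout libraries lay above all control libraries, as they did at 17.5% of all peaks. Just outside, the next peak below (13.7 kb away) had a log2 fold change of 0.07 ± 0.16 and the next above (78.1 kb away) one of -0.32 ± 0.20, and neither was called. The 49 other peaks within 2 Mb had a median of -0.06, with 3 called higher and 2 lower, and the median of chromosome 7 was 0.01. Because the window was chosen with the fold changes in view, its contrast with these surroundings is a description only.

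These regions were weakly acetylated for their width in control organoids. Control levels enter the fold changes in view when the windows were chosen, so low control density is a description only. In control libraries 16 of the 20 peaks lay under the median density of all peaks, and 10 lay in the lowest 10% of all peaks. In knockout libraries 10 lay under the median and 1 in the lowest 10%. The median density of the 20 peaks was 10.6 CPM per kb in knockout and 7.13 CPM per kb in control libraries.

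**Figure D4:**
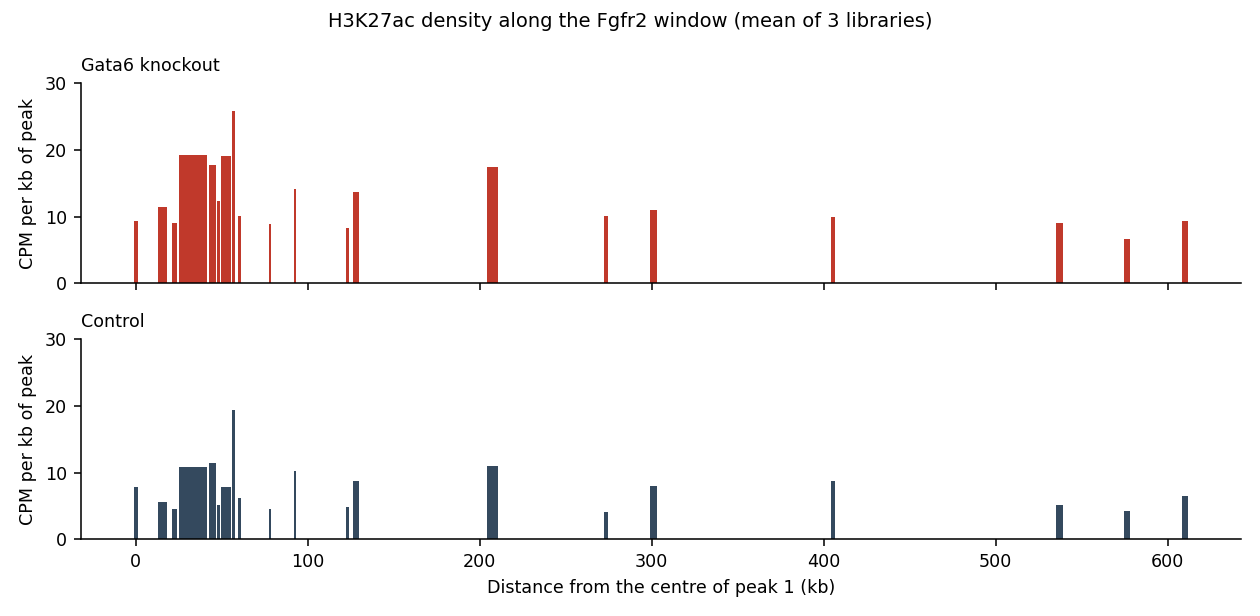
Mean H3K27ac density (CPM per kb of peak, y axis from 0, 3 libraries per group) along the Fgfr2 window, against the distance in kb from the centre of peak 1, with each bar as wide as its peak. Gata6 knockout is above and control below on the same scale, and every bar is taller in the knockout, most visibly in the group of 9 peaks at the left (means over that group 16.4 and 9.14 CPM per kb).

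The largest part of the difference lay in the first 9 peaks, each at most 12.5 kb from the next, at chr7:136779445-136842149. These peaks lie at the lower end of the window, on the side of the downstream flank. Their sum was 696, 690.2 and 725 CPM in knockout and 381, 395 and 403 CPM in control libraries, a 1.79-fold ratio with the groups apart. They supplied 69.7% of the window's difference in summed level. The other 11 peaks, spread over the remaining part of the window, summed to 372, 391 and 379 CPM in knockout and to 241, 252 and 243 CPM in control libraries, a 1.55-fold ratio with the groups apart.

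Fgfr2 peak 4, at chr7:136805615-136822373, was the broadest and the highest. At 16759 bp it was wider than 98.7% of all peaks. It had 321, 323 and 322 CPM in knockout and 176, 184 and 183 CPM in control libraries, a log2 fold change of 0.83 ± 0.06. This peak alone supplied 31.6% of the window's difference, and its share of the summed level was 29.7% in knockout and 28.4% in control libraries. Fgfr2 peak 7, at chr7:136830462-136836003, had the largest fold change of the window. It had 102, 96.1 and 119.6 CPM in knockout and 46.6, 40.5 and 43.3 CPM in control libraries, a log2 fold change of 1.28 ± 0.11. It held 9.76% of the summed level in knockout and 6.81% in control libraries. Fgfr2 peak 6, at chr7:136827727-136829906, a small peak between them, had 23.9, 29.0 and 27.9 CPM in knockout and 12.2, 9.74 and 11.5 CPM in control libraries, a log2 fold change of 1.27 ± 0.22. In these 3 peaks every knockout value was well above every control value.

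Of the peaks to their left, Fgfr2 peak 2, at chr7:136793805-136798636, had 58.8, 47.2 and 59.2 CPM in knockout and 19.3, 27.5 and 34.1 CPM in control libraries, a log2 fold change of 1.02 ± 0.14. Fgfr2 peak 3, at chr7:136801553-136804665, had 25.4, 28.3 and 30.5 CPM in knockout and 10.8, 16.0 and 15.5 CPM in control libraries, a log2 fold change of 0.99 ± 0.20. Both lay among the 10% of peaks with the lowest density in control libraries, and their groups did not overlap. Fgfr2 peak 5, at chr7:136823480-136827416, had 70.0, 66.8 and 72.8 CPM in knockout and 45.6, 47.5 and 42.7 CPM in control libraries, a log2 fold change of 0.63 ± 0.12. Fgfr2 peak 9, at chr7:136839988-136842149, had 22.1, 25.4 and 18.1 CPM in knockout and 16.3, 11.3 and 12.6 CPM in control libraries, a log2 fold change of 0.70 ± 0.23. Its groups were close, and the call at peak 9 was lost without knockout replicate 2 (0.58) or control replicate 2 (0.60).

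The densest peak was among those that differed least. Fgfr2 peak 8, 1949 bp wide, held 25.9 CPM per kb in knockout and 19.3 CPM per kb in control libraries, where 97.3% of all peaks were less dense. It was called higher with a log2 fold change of 0.42 ± 0.14, a call lost without knockout replicate 2 (0.37) or control replicate 1 (0.33). Fgfr2 peak 1, at the left edge of the group, had 25.2, 20.3 and 24.7 CPM in knockout and 21.2, 16.4 and 21.8 CPM in control libraries, and was not called (0.24 ± 0.19).

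**Figure D5:**
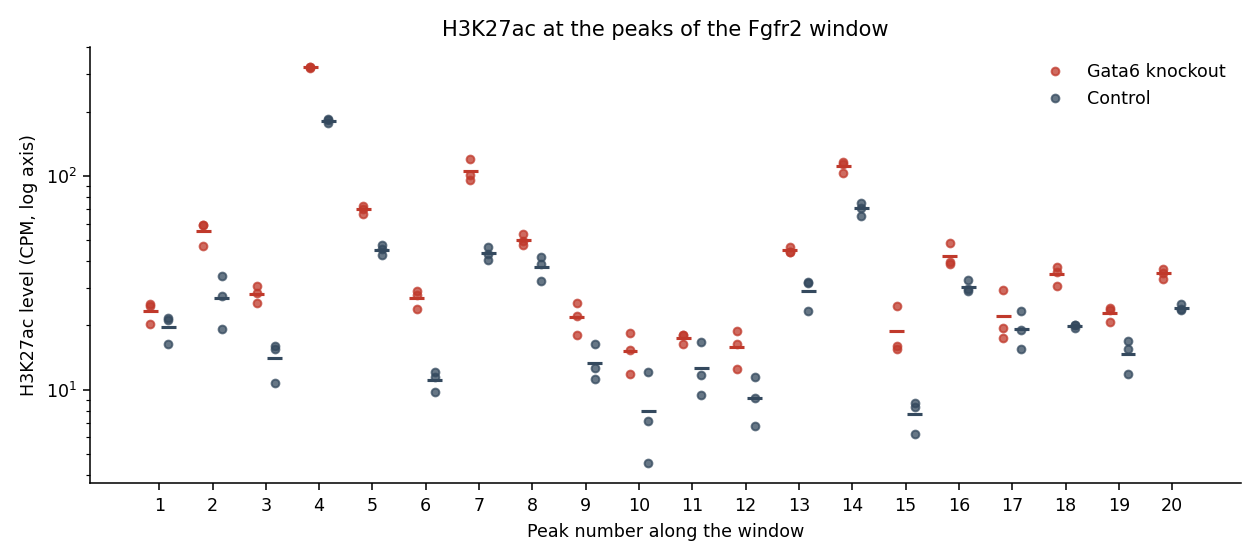
H3K27ac level (CPM, log axis) at the 20 peaks of the Fgfr2 window in order, with 1 point per library, Gata6 knockout left of control in each slot, and bars for the group means. The knockout mean is higher at all 20 peaks, and the groups overlap at peaks 1, 10, 11 and 17.

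Further along the window, Fgfr2 peak 14 stood out by level. At chr7:136984918-136991321, it had 116, 114 and 104 CPM in knockout and 65.4, 75.2 and 71.0 CPM in control libraries, a log2 fold change of 0.66 ± 0.10 with the groups apart. It lay alone, with 74.5 kb to its left neighbour and 61.9 kb to its right one, and supplied 9.14% of the window's difference. Fgfr2 peak 13, at chr7:136907117-136910409, had 46.7, 44.3 and 43.9 CPM in knockout and 31.7, 23.4 and 31.8 CPM in control libraries, a log2 fold change of 0.63 ± 0.15. Fgfr2 peak 15, at chr7:137053192-137055066, had the largest fold change beyond the first 9 peaks, on low levels of 16.0, 15.6 and 24.7 CPM in knockout and 8.70, 6.23 and 8.31 CPM in control libraries (1.27 ± 0.29). Its log2 fold change was 0.97 with scaling that followed the mean count. In fits without 1 library it ran between 1.02 and 1.39, and the call was kept in each of these settings. Only 0.647% of all peaks were less dense than peak 15 in control libraries.

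Weaker peaks gave less certain values. Fgfr2 peak 10, at chr7:136857880-136859604, had 15.3, 18.5 and 11.9 CPM in knockout and 4.52, 12.1 and 7.16 CPM in control libraries, a log2 fold change of 0.95 ± 0.33. Fgfr2 peak 12, at chr7:136902695-136904613, had 12.5, 16.3 and 18.9 CPM in knockout and 6.78, 11.5 and 9.17 CPM in control libraries, a log2 fold change of 0.81 ± 0.31. The groups at peak 10 overlapped, and its call was lost without knockout replicate 1 (0.95) or 2 (0.79) or control replicate 1 (0.68) or 3 (0.88). The call at peak 12 was lost without knockout replicate 2 (0.79) or 3 (0.66) or control replicate 1 (0.64) or 3 (0.81). With scaling that followed the mean count, neither was called, at 0.57 for peak 10 and 0.46 for peak 12. Fgfr2 peak 11, between them, had overlapping groups and was not called (0.48 ± 0.26), and peak 16 was called (0.48 ± 0.15) but not without knockout replicate 3 (0.36).

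Fgfr2 peak 17 differed least of the 20. At chr7:137185233-137187454, it had 17.4, 29.4 and 19.6 CPM in knockout and 19.1, 23.4 and 15.5 CPM in control libraries, and its log2 fold change of 0.20 ± 0.20 was not called. Without knockout replicate 2, which held the highest value, the log2 fold change at peak 17 was -0.05.

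The last 3 peaks, at the upper end of the window and 128 kb beyond peak 17, were each called higher. Fgfr2 peak 18, at chr7:137315953-137319817, had 30.6, 37.7 and 35.6 CPM in knockout and 20.2, 19.5 and 20.0 CPM in control libraries, a log2 fold change of 0.80 ± 0.17. Fgfr2 peak 19, at chr7:137355382-137358819, had 23.7, 24.1 and 20.8 CPM in knockout and 11.8, 15.6 and 16.9 CPM in control libraries, a log2 fold change of 0.63 ± 0.21. Fgfr2 peak 20, at chr7:137389033-137392798, had 36.9, 35.4 and 33.0 CPM in knockout and 23.7, 23.8 and 25.2 CPM in control libraries, a log2 fold change of 0.53 ± 0.16. The groups lay apart at all 3 peaks, and all 3 were less dense than the median peak in both groups, at 8.97, 6.66 and 9.32 CPM per kb in knockout and 5.15, 4.30 and 6.43 CPM per kb in control libraries. The call at peak 19 was lost without knockout replicate 1 (0.60) or 2 (0.59) or control replicate 1 (0.49).

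Peaks of like level elsewhere were set beside those of the Fgfr2 window. The band from 18.5 to 41.8 CPM was the middle 50% of the Fgfr2 members by mean level. In it the median log2 fold change of 11547 other peaks was -0.03, and 9.73% were called higher. The broadest Fgfr2 peak, which supplied 31.6% of the window's difference, lay above this band. No median was taken over the Fgfr2 peaks inside the band alone. Because the window was chosen with the fold changes in view, the comparison is a description only, and an effect of level was not tested. With scaling that followed the mean count, the median log2 fold change over the 20 Fgfr2 peaks was 0.62, and 15 were called higher.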

How the data were processed

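H3K27ac was measured by paired-end CUT&RUN in 3 Gata6 knockout and 3 control AKP organoid libraries; 1 H3K4me3 and 1 IgG library of the series were not analysed here, so levels include any background. The file the authors deposited holds raw counts of reads over 1 peak set common to the 6 libraries. Per the submitters' processing notes, reads were placed on mm9, and the tools were bedtools, SEACR, SAMtools, Picard and Bowtie. What each did, in which version, and which program counted reads is not stated in the sources used here. Of the deposited counts, 82.8% to 88.9% per library were even, as when both mates of a pair are counted, and the counting error is then larger than that of so many independent reads.

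The windows, members and lists were chosen with earlier results of these data known. Peaks were fitted with edgeR 4.0.16 in R 4.3.3 (TMM factors, expression filter, which removed 0 peaks, quasi-likelihood test with group as the only term, Benjamini-Hochberg adjustment over 22731 peaks). The test was tried on simulated independent counts, which does not give its error rate on these mostly even counts. The standard error is the log2 fold change divided by the root of the F statistic. The coefficient of variation between libraries of a group beyond counting error, estimated as 1 value common to all peaks, was 11.4%. Library size is the sum of reads in peaks, and a shift common to every peak would go unseen. No pair of libraries looked like copies (with counts halved, chi-square divided by its degrees of freedom was 1.53 to 1.84 within groups). Named with values in every library are, per window, the peaks with the highest level and the largest and smallest log2 fold change, and every called peak of 1.5-fold or more (log2 of at least 0.58); other peaks given per library were chosen after their values were seen, as were the 12.5-kb limit of the first stretch, the end-to-end windows and the 2-Mb surroundings. DESeq2 1.42.0 and other settings were tried. Other receptor pathway genes and cell type markers were not analysed here, since no mm9 annotation was used.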

Additional observations from a re-analysis of the deposited data

How the results depend on the processing

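For the 23 named peaks, 16 other settings gave 364 values, of which 335 had the same call and direction, 19 had the same direction and no call, 1 gained a call and 9 changed sign at peaks that were never called. The losses fell on Fgfr2 peaks 9, 10, 12 and 19 and the gain on Met peak 1. The sign changed at Erbb3 peak 1 with total counts (0.01) and with low counts removed (0.02), and at Erbb3 peak 2 without chromosome 5 (-0.0039). In fits without 1 library, values ran between -0.21 and 0.13 at Erbb3 peak 1, between -0.06 and 0.06 at Erbb3 peak 2 and between -0.05 and 0.36 at Fgfr2 peak 17; the cause was not tested. Of 65 sums under other settings, 63 moved by less than the spread between libraries. The exceptions were both at Erbb2, where the log2 ratio of 0.08 became 0.16 with the window widened by 50 kb on each side and 0.03 as a mean of log2 levels over peaks. Without its first 9 peaks, a setting chosen after seeing the data, the Fgfr2 log2 ratio was 0.63, while that of the first 9 peaks alone was 0.84. Trended offsets gave 2 lower calls and 16 higher calls in the windows, and testing against a 1.2-fold change left 11 higher calls. The calls lost in that test had log2 fold changes from 0.42 (Fgfr2 peak 8) to 0.95 (Fgfr2 peak 10), all above 1.2-fold. Fits without 1 library had 13 to 17 higher calls and 1 lower call, and Fgfr2 log2 ratios of 0.75 to 0.77. The removal of peaks with a mean count under 100 tested 28 of the 34 members. No label pairs libraries by their number, and the deviations of same-numbered libraries from their group means correlated at 0.00593 to 0.0664; with a replicate block there were 18 higher calls and 1 lower call. Weak peaks limit the precision: the 20 Fgfr2 peaks held 26 to 2010 reads per library, and with counts from 3 libraries per group a difference at Egfr, Erbb3 or Met that was not called is not shown to be absent.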
